A study of Rattus norvegicus with 8 samples.

Results

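The macrophage compartment of rat liver was followed through 10 genes that mark resident liver macrophages (Kupffer cells) or macrophages in general: Clec4f, Vsig4, Marco, Timd4, Cd163, Mrc1, Csf1r, Adgre1, Cd68 and Cd5l. Members were taken by gene symbol from a table of read counts over 30562 annotated genes. Of the 10 symbols, 9 matched a row, and all 9 of these passed the filter on low counts, which kept 16591 genes. Cd5l, which encodes a protein secreted by macrophages, matched no row by name and was not analysed here.

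Kupffer cells line the liver sinusoids, where they take up bacteria, opsonised particles, dying cells and aged red cells from the blood. They are seeded before birth and are maintained through the receptor CSF1R, and when they are lost, monocytes can enter the liver and acquire the Kupffer programme. In rodents CLEC4F is nearly restricted to Kupffer cells, VSIG4, TIMD4 and MARCO mark resident macrophages, and CSF1R, ADGRE1 (F4/80) and CD68 are shared by macrophages in general.

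Livers came from male Wistar rats, per the labels, with 2 animals sequenced in each of 4 groups of 5, all killed on day 37. The HCB group received hexachlorobenzene, a persistent chlorinated fungicide, at 100 mg/kg by gavage on 3 occasions a week over 30 days, and the control group received vehicle. The atorvastatin plus HCB group received both agents, and the atorvastatin group received the statin alone, its labelled dose being 5 mg/kg each day by way of the drinking water. The HCB and the atorvastatin plus HCB libraries are called HCB-labelled below (n = 4), and the atorvastatin and the control libraries are called unexposed (n = 4). Assigned reads ranged from 29.4 M to 52.0 M per library, and levels are given in CPM, read counts scaled to the normalised library size.

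The labels call every rat male, but the unexposed libraries carried almost no Y-linked transcripts. The summed level of Ddx3, Kdm5d, Eif2s3y and Uty ran from 135 to 217 CPM in HCB-labelled libraries and from 0.900 to 1.90 CPM in unexposed libraries. The fetal liver transcripts Afp, H19 and Igf2 ran the other way, with summed levels of 145 to 329 CPM in HCB-labelled and 37421 to 51193 CPM in unexposed libraries. An effect of HCB therefore cannot be told apart here from whatever else separates these libraries, and each difference below is one between labelled libraries. Reads falling in no annotated exon made up a share that also moved with the groups, from 7.46% to 11.4% in HCB-labelled and from 15.3% to 34.04% in unexposed libraries, highest in atorvastatin replicate 1. In whole tissue, fewer macrophages and less RNA per macrophage cannot be told apart.

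The upstream promoter sequences of the 3 genes called in HCB versus control are shown first, as the 250 bases before the annotated start (RefSeq, GRCr8, read 5′ to 3′ on the gene's strand). Capitals mark TGGGAA, the core recognised by RBPJ, the nuclear effector of Notch signalling, and GAGGAA, the core of the PU box bound by the macrophage factor PU.1. They lie at chrX:65179709-65179958 (minus strand) for Vsig4, at chr4:117696408-117696657 (minus strand) for Clec4f and at chr13:34201256-34201505 (minus strand) for Marco.
Vsig4: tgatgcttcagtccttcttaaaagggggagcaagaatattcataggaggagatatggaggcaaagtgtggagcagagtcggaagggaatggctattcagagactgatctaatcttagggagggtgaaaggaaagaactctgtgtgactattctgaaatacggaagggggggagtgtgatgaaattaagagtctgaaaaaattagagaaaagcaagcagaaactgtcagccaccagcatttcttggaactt
Clec4f: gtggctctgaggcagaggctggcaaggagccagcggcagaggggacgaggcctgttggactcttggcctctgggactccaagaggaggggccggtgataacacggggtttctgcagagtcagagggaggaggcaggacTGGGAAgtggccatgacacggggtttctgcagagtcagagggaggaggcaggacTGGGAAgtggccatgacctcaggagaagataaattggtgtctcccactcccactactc
Marco: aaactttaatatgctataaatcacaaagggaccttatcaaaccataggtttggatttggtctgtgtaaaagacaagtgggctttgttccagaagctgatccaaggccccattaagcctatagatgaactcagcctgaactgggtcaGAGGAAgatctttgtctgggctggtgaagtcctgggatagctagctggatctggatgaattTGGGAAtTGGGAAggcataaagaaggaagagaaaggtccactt

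The Clec4f window held TGGGAA at 112 and at 58 bases before the start, and both copies sit in the same place of a 54-base stretch that occurs 2 times head to tail, beginning 151 and 97 bases before the start. A repeat of that length without overlap occurred in 82 of 33469 rat promoter windows (0.245%). Marco held TGGGAA at 43 and 36 bases and GAGGAA at 104 bases before the start, and Vsig4 held neither motif. Both strands were searched, no motif overlapped another, and letters that match are a description of sequence and not of binding. Over the 9 genes with a row in the table, GAGGAA occurred in 5 windows against 23.3% of all windows, TGGGAA in 3 against 22.1%, and the AP-1 site TGANTCA in 1, that of Cd68, against 6.34%.

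The 9 genes did not move in 1 direction. In HCB versus control, 2 genes rose (Vsig4 and Clec4f) and 1 fell (Marco) at an adjusted p under 0.05 in edgeR's quasi-likelihood test, where 26.9% of all genes tested were called, 13.05% higher and 13.87% lower. In atorvastatin plus HCB versus atorvastatin, Vsig4 and Clec4f rose and none fell, where 27.6% of all genes were called, 12.56% higher and 14.99% lower. Averaged over both comparisons, 2 rose and 2 fell, Timd4 being added to Marco, where 46.6% of all genes were called, 21.28% higher and 25.30% lower. The shares of members called, 3, 2 and 4 of 9, stand near these backgrounds, so the count itself is no result about macrophage genes. The median log2 difference of the 9 genes was -0.18, 0.02 and -0.08 in the 3 comparisons, beside -0.09, -0.11 and -0.11 over all genes tested. The first count was 1 without control replicate 1, HCB replicate 1 or HCB replicate 2, and the second was 1 without atorvastatin replicate 1, Vsig4 being called in each. The third was 8 with scaling to total assigned reads, 2 higher and 6 lower. A fit without 1 library leaves its group with a single library, which is assumed to vary like the other groups. Lack of overlap between groups is given below for single genes. The share of all genes tested that separate likewise is not given here, so it only describes the libraries.

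Vsig4 (ENSRNOG00000038132, chromosome X, 61144928 to 61170212 on mRatBN7.2, minus strand) encodes a complement receptor of the immunoglobulin superfamily that captures C3-coated bacteria and in rodents marks resident macrophages. It stood at 48.8 and 33.8 CPM in HCB libraries against 3.33 and 4.67 CPM in control libraries. It stood at 25.9 and 44.04 CPM in atorvastatin plus HCB libraries against 2.71 and 4.78 CPM in atorvastatin libraries. Every HCB-labelled library thus lay far above every unexposed library, with 1034 to 1958 reads against 113 to 230 reads. The log2 difference was 3.37 ± 0.38 (SE; edgeR adjusted p = 0.000165) in HCB versus control, a 10.3-fold difference with a 95% interval of 5.74 to 18.6. It was 3.22 ± 0.38 (edgeR adjusted p = 0.000212) in atorvastatin plus HCB versus atorvastatin, a 9.33-fold difference with an interval of 5.21 to 16.7. Vsig4 passed the threshold in each of these comparisons under all 9 other settings and in all 8 fits without 1 library.

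Clec4f (ENSRNOG00000013137, chromosome 4, 116129023 to 116138775, minus strand) encodes the galactose-binding lectin that is the most specific Kupffer cell marker of rodents. It stood at 121 and 105 CPM in HCB libraries against 37.9 and 51.4 CPM in control libraries. It stood at 82.3 and 141 CPM in atorvastatin plus HCB libraries against 28.6 and 59.5 CPM in atorvastatin libraries. The HCB-labelled and unexposed libraries did not overlap, although both atorvastatin groups spread widely. The log2 difference was 1.34 ± 0.37 (edgeR adjusted p = 0.0210) in HCB versus control and 1.34 ± 0.37 (edgeR adjusted p = 0.0206) in atorvastatin plus HCB versus atorvastatin, or 2.53-fold (95% interval 1.45 to 4.42) and 2.54-fold (1.45 to 4.43). Averaged over both it was 1.34 ± 0.26 (edgeR adjusted p = 0.00180), a call kept under all 9 other settings and in all 8 fits without 1 library. The HCB versus control call was lost without control replicate 1 (adjusted p = 0.152), HCB replicate 1 (0.109) or HCB replicate 2 (0.0555), without both libraries with most reads outside exons (0.0941) and with scaling to total assigned reads (0.93, adjusted p = 0.0577). The atorvastatin plus HCB versus atorvastatin call was lost without atorvastatin replicate 1 (0.122), without atorvastatin plus HCB replicate 2 (0.160), without the same pair of libraries (0.159) and with total reads (0.80, adjusted p = 0.0785).

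**Figure D1:**
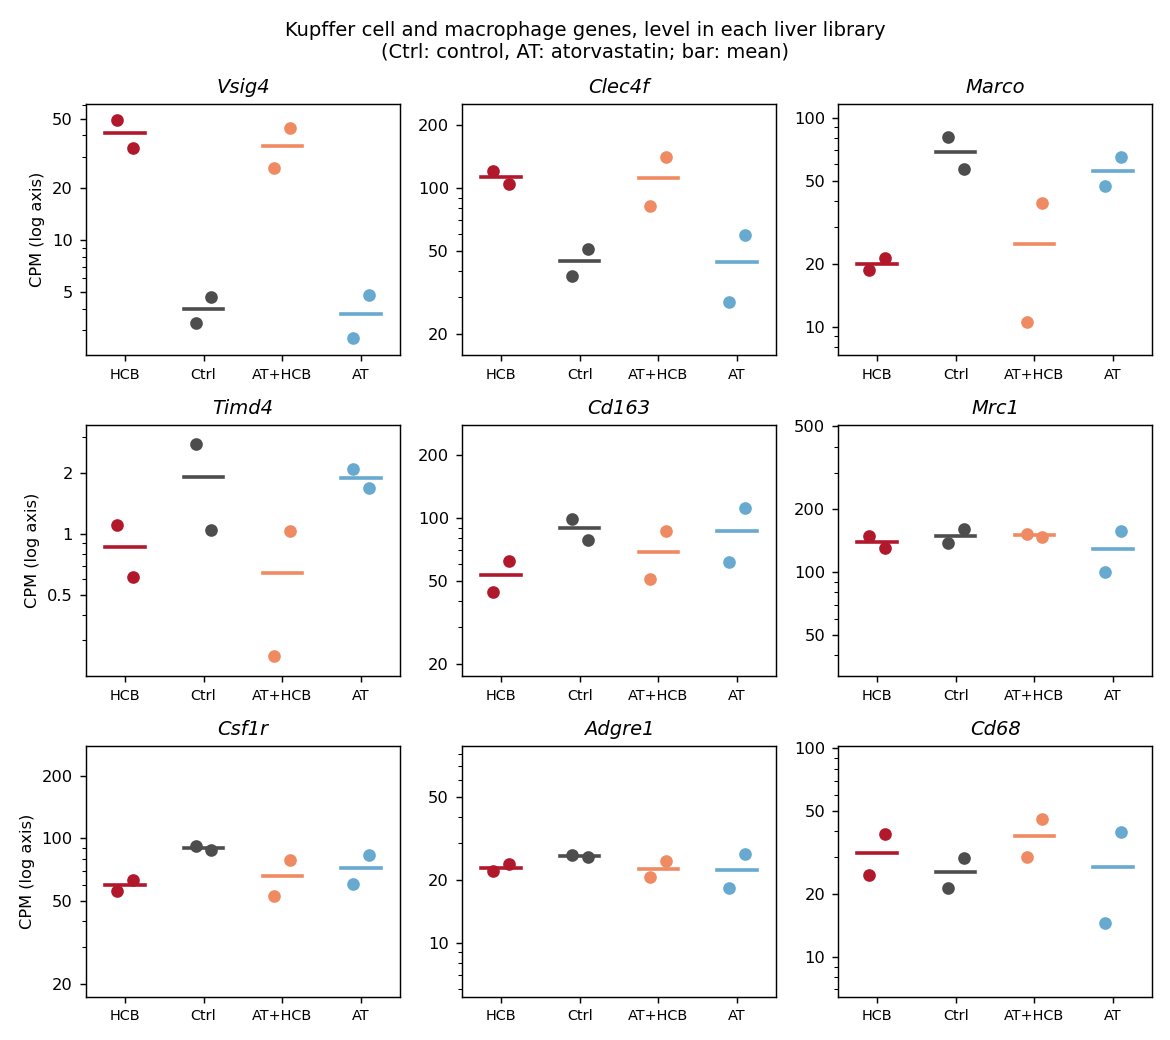
Level of each of the 9 genes in every library, in CPM on a log axis, by labelled group (AT, atorvastatin; Ctrl, control), with points for libraries and bars for group means. Vsig4 and Clec4f are higher in all 4 HCB-labelled libraries than in all 4 unexposed ones and Marco is lower, whereas Mrc1, Adgre1 and Cd68 overlap between the HCB-labelled and unexposed libraries.

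Marco (ENSRNOG00000049303, chromosome 13, 31616278 to 31648521, minus strand), a class A scavenger receptor that binds bacteria and particles, ran the other way. It stood at 18.6 and 21.3 CPM in HCB libraries against 81.1 and 56.7 CPM in control libraries. It stood at 10.6 and 39.1 CPM in atorvastatin plus HCB libraries against 47.0 and 64.9 CPM in atorvastatin libraries. Again no HCB-labelled library reached an unexposed one, but the atorvastatin plus HCB libraries were far apart from each other. The log2 difference was -1.79 ± 0.50 (edgeR adjusted p = 0.0249) in HCB versus control and -1.17 ± 0.49 (edgeR adjusted p = 0.0996) in atorvastatin plus HCB versus atorvastatin. Averaged over both, the difference of Marco was -1.48 ± 0.35 (edgeR adjusted p = 0.00645), with an interval of -2.25 to -0.71, and this call held under every setting and without any 1 library, the highest adjusted p being 0.0483.

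The single comparisons of Marco depended on single libraries. The HCB versus control call was lost without control replicate 1 (adjusted p = 0.161), control replicate 2 (0.0563), HCB replicate 1 (0.175), HCB replicate 2 (0.105) or atorvastatin replicate 2 (0.0527), and without both libraries with most reads outside exons (0.145). In atorvastatin plus HCB versus atorvastatin, Marco passed without atorvastatin plus HCB replicate 2 (-2.38, adjusted p = 0.00299), and with DESeq2 (0.0389), with no filter on low counts (0.000424) and with total reads (-1.73, adjusted p = 0.0238).

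Timd4 (ENSRNOG00000038894, chromosome 10), a phosphatidylserine receptor for dying cells that in mice marks Kupffer cells of embryonic origin, was the scarcest of the 9 genes. It had 35 and 23 reads (1.11 and 0.614 CPM) in HCB libraries against 109 and 44 reads (2.77 and 1.04 CPM) in control libraries. It had 10 and 46 reads (0.251 and 1.03 CPM) in atorvastatin plus HCB libraries against 87 and 81 reads (2.08 and 1.68 CPM) in atorvastatin libraries. The HCB and control libraries overlapped and the atorvastatin pair did not, and at this depth the single comparisons did not pass (-1.15 ± 0.71, edgeR adjusted p = 0.255, and -1.54 ± 0.72, edgeR adjusted p = 0.131), although with no filter on low counts the second did (-1.53, adjusted p = 0.0454). The average passed at the margin, -1.34 ± 0.51 on the log2 scale with an edgeR adjusted p of 0.0483. That call was lost without control replicate 1 (adjusted p = 0.214), HCB replicate 1 (0.0732), HCB replicate 2 (0.144), atorvastatin replicate 1 (0.0870) or atorvastatin plus HCB replicate 1 (0.151). It was also lost with the replicate block (-1.29, adjusted p = 0.0698), with the stricter filter (0.0506), without robust estimation (0.0505) and without both libraries with most reads outside exons (-0.83, adjusted p = 0.339).

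Cd163 (ENSRNOG00000010253, chromosome 4), the receptor that clears haemoglobin bound to haptoglobin, stood at 44.2 and 62.1 CPM in HCB libraries against 99.6 and 78.9 CPM in control libraries. In the atorvastatin pair it stood at 51.0 and 86.7 CPM in atorvastatin plus HCB against 61.9 and 111.3 CPM in atorvastatin libraries. The first pair of groups did not overlap and the second did. The log2 difference was -0.75 ± 0.34 (edgeR adjusted p = 0.131) and -0.33 ± 0.34 (edgeR adjusted p = 0.491), and averaged -0.54 ± 0.24 (edgeR adjusted p = 0.0893), with a 95% interval of -1.07 to -0.01. The average passed with no filter on low counts (0.0248), with total reads (-1.04, adjusted p = 0.00599) and without atorvastatin replicate 1 (-0.72, adjusted p = 0.0272), and HCB versus control passed with no filter (0.0411) and with total reads (-1.19, adjusted p = 0.0329).

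Csf1r (ENSRNOG00000018414, chromosome 18), the receptor for CSF1 and IL-34 on which macrophages depend for survival, stood at 56.1 and 63.3 CPM in HCB libraries against 91.8 and 87.6 CPM in control libraries, and those groups did not overlap. Csf1r stood at 52.8 and 79.2 CPM in atorvastatin plus HCB libraries against 60.8 and 83.7 CPM in atorvastatin libraries, which overlapped. The log2 differences were -0.59 ± 0.26 (edgeR adjusted p = 0.122) and -0.13 ± 0.26 (edgeR adjusted p = 0.733), and the average was -0.36 ± 0.19 (edgeR adjusted p = 0.134). Csf1r passed when libraries were scaled to total assigned reads, in HCB versus control (-1.02, adjusted p = 0.0261) and on average (-0.87, adjusted p = 0.00511). That scaling moves the median log2 difference of all genes tested to -0.64, against -0.11 with TMM.

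Adgre1 (ENSRNOG00000046254, chromosome 9), the adhesion receptor F4/80, hardly varied. It stood at 22.04 and 23.8 CPM in HCB libraries against 26.3 and 25.7 CPM in control libraries, and at 20.7 and 24.6 CPM in atorvastatin plus HCB against 18.3 and 26.5 CPM in atorvastatin libraries. The HCB libraries lay just below the control libraries without overlap, and the atorvastatin pair overlapped. The average log2 difference was -0.08 ± 0.17 (edgeR adjusted p = 0.717), with a 95% interval of -0.46 to 0.30, or 0.725-fold to 1.23-fold. A difference as large as that of Vsig4 or Clec4f lies outside this interval, and with total reads the average of Adgre1 was -0.59 (adjusted p = 0.0295).

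Mrc1 (ENSRNOG00000018251, chromosome 17), the mannose receptor, is carried by sinusoidal endothelium as well as macrophages, and its span overlaps Mir511 on the same strand. It stood at 149 and 130.5 CPM in HCB libraries against 138 and 162 CPM in control libraries, and at 152 and 148 CPM in atorvastatin plus HCB against 100.6 and 157 CPM in atorvastatin libraries. The groups overlapped in both pairs. The average log2 difference of Mrc1 was 0.06 ± 0.19 (edgeR adjusted p = 0.806), with a 95% interval of -0.36 to 0.48, and with total reads it was -0.44 (adjusted p = 0.0453).

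Cd68 (ENSRNOG00000037563, chromosome 10), a heavily glycosylated protein of macrophage lysosomes, stood at 24.6 and 38.8 CPM in HCB libraries against 21.4 and 29.8 CPM in control libraries. It stood at 30.2 and 45.8 CPM in atorvastatin plus HCB libraries against 14.5 and 39.7 CPM in atorvastatin libraries. Both pairs of groups overlapped, and the average log2 difference was 0.40 ± 0.30 (edgeR adjusted p = 0.297), with a 95% interval of -0.27 to 1.06. Without atorvastatin replicate 2, Cd68 passed in atorvastatin plus HCB versus atorvastatin (1.40, adjusted p = 0.0227) and on average (0.86, adjusted p = 0.0134). Among the 4 unexposed libraries, atorvastatin replicate 1 was the lowest for Vsig4, Clec4f, Marco, Cd163, Csf1r, Adgre1, Mrc1 and Cd68, and it is also the library with most reads outside exons. Where the fit without it changed a call, that is given with the gene.

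**Figure D2:**
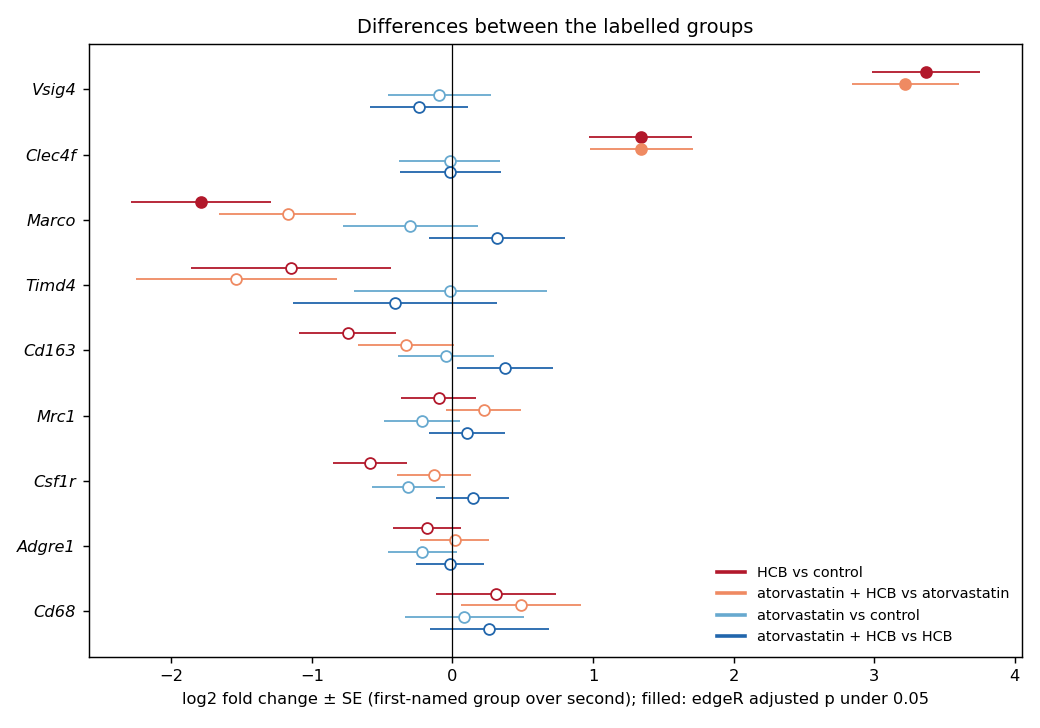
Log2 fold change ± SE of each gene in 4 comparisons, the first-named group over the second, from 1 edgeR model of 8 libraries, with filled points past an adjusted p of 0.05. Vsig4 lies above 3 in both HCB comparisons and Clec4f at 1.34 in both, Marco is filled in HCB versus control alone, and the points of both atorvastatin comparisons are open and lie between -0.41 and 0.37.

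Compared per length of exon, in RPKM, the order of the genes differed between the groups. Clec4f was first in HCB libraries, at 58.8 ± 5.83 RPKM (SD, n = 2), and did not overlap Vsig4, which came next at 28.0 ± 7.21 RPKM. Vsig4 overlapped Mrc1 (26.6 ± 2.49 RPKM), which overlapped Cd68 (24.7 ± 7.80 RPKM). Below a gap came Csf1r, Cd163 and Marco at 13.02, 11.1 and 9.78 RPKM, neighbours that overlapped, then Adgre1 at 6.94 and Timd4 at 0.418 RPKM. In control libraries Marco was first, at 33.8 ± 8.48 RPKM, and overlapped Mrc1 (28.4 ± 3.22 RPKM). Clec4f, Cd68, Csf1r and Cd163 followed at 23.3, 19.9, 19.6 and 18.7 RPKM, each overlapping the next. Adgre1 (7.87 RPKM), Vsig4 (2.71 ± 0.64 RPKM) and Timd4 (0.924 RPKM) came last and did not overlap.

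The first and the last places were held by the same genes in the atorvastatin groups, and places between them differed. In atorvastatin plus HCB libraries, Clec4f was first at 58.2 ± 21.7 RPKM and did not overlap the next gene. Vsig4 was the fourth there at 23.7 ± 8.69 RPKM, overlapping Mrc1 and Cd163. In atorvastatin libraries, Marco was first at 27.4 ± 6.22 RPKM and overlapped Mrc1, and Vsig4 was the eighth at 2.54 ± 0.99 RPKM.

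The composition of the macrophage signal was also read within each library, as the RPKM of a gene divided by that of Csf1r, which needs no scaling between libraries. Clec4f stood at 5.14 and 3.96 times Csf1r in HCB against 0.987 and 1.40 times in control libraries, and at 3.72 and 4.26 times in atorvastatin plus HCB against 1.12 and 1.70 times in atorvastatin libraries. Vsig4 stood at 2.7 and 1.66 times Csf1r in HCB against 0.113 and 0.165 times in control libraries, and at 1.53 and 1.73 times in atorvastatin plus HCB against 0.138 and 0.177 times in atorvastatin libraries. For both genes the lowest HCB-labelled ratio exceeded the highest unexposed one. Marco was at 0.745 and 0.756 times Csf1r in HCB against 1.99 and 1.45 times in control libraries, and at 0.449 and 1.11 times in atorvastatin plus HCB against 1.74 and 1.74 times in atorvastatin libraries, again without overlap. Cd163 stood at 0.756 to 1.05 times in HCB-labelled and 0.864 to 1.28 times Csf1r in unexposed libraries, which overlapped. A ratio within a library shows unequal change and does not say which of the 2 genes moved.

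**Figure D3:**
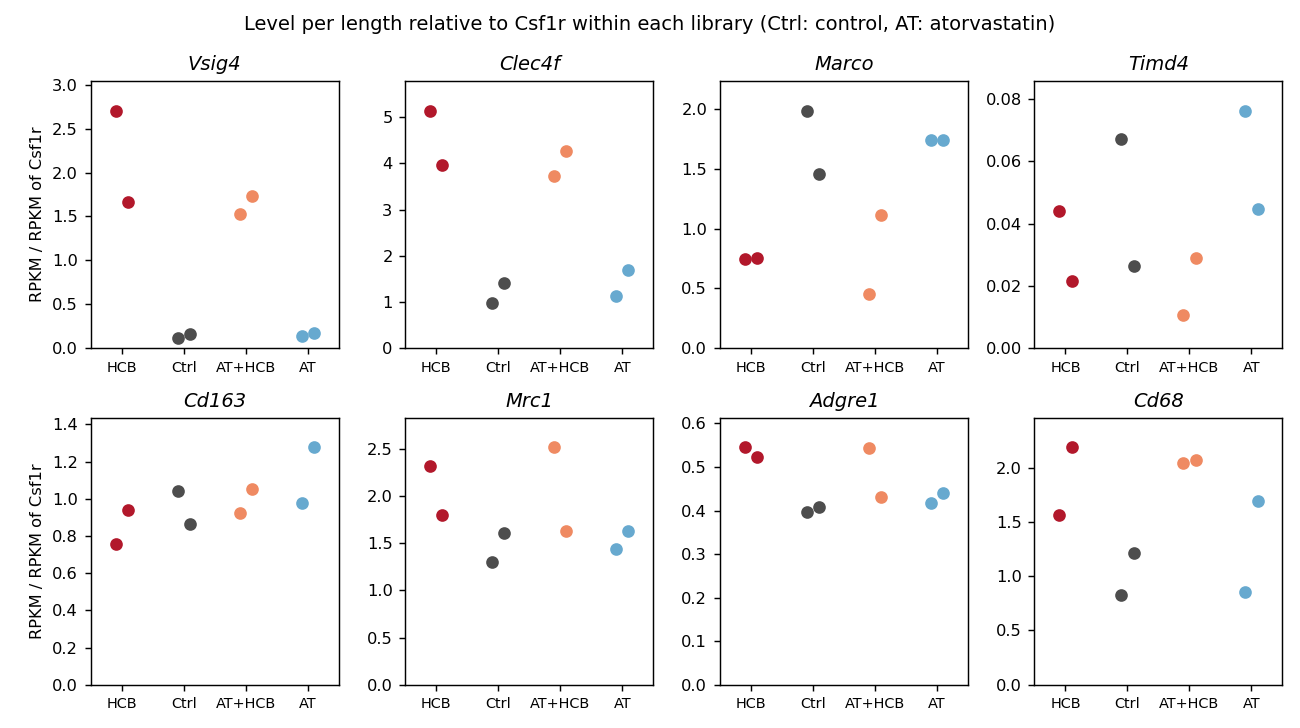
RPKM of each gene divided by the RPKM of Csf1r in the same library, by labelled group (AT, atorvastatin; Ctrl, control), each point 1 library, on linear axes from 0. Clec4f is at 3.72 to 5.14 times Csf1r in HCB-labelled and 0.987 to 1.70 times in unexposed libraries, and Cd163 overlaps between them.

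Genes whose profile over the 8 libraries lay nearest to a member were named by the smallest root mean square difference of centred log2 CPM. For Clec4f these were Ly6e (0.0630), Lap3 (0.170) and Hprt1 (0.194), and for Csf1r they were Cybb (0.0692), Rin2 (0.118) and Laptm5 (0.128). Ly6e, a small GPI-anchored protein, stood at 39.7 and 36.1 CPM in HCB against 11.7 and 15.6 CPM in control libraries. In atorvastatin plus HCB it stood at 25.4 and 44.3 CPM, against 9.15 and 17.7 CPM in atorvastatin libraries. Cybb, the phagocyte oxidase subunit, stood at 27.7 and 31.4 CPM in HCB against 46.8 and 47.5 CPM in control libraries. The atorvastatin pair overlapped for Cybb, at 27.1 and 45.8 CPM with HCB against 31.2 and 43.7 CPM without it. Neither list includes another of the 9 genes, and the likeness is a description over 8 libraries.

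Atorvastatin was set against no statin on either background. No member was called in atorvastatin plus HCB versus HCB, in atorvastatin versus control, in their average or in the interaction of both agents, and edgeR called 0% of all genes in each of these. No member had an unadjusted p under 0.05 there, and DESeq2 called none of the 9 either, while over all genes it called 47, 3, 12 and 5. The members' log2 differences ran from -0.41 to 0.37 in atorvastatin plus HCB versus HCB and from -0.31 to 0.09 in atorvastatin versus control. For Clec4f the 95% interval was -0.81 to 0.78 in atorvastatin plus HCB versus HCB, and for Vsig4 it was -1.0 to 0.52. For Marco, whose HCB difference passed in 1 pair and not in the other, the interaction was 0.62 ± 0.68 on the log2 scale (edgeR adjusted p = 1, unadjusted p = 0.386), with an interval of -0.90 to 2.14, so a difference between the pairs was not detectable with 2 libraries a group.

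Wider lists of the macrophage programme were then counted in the average of both HCB comparisons. Of all genes 46.6% were called there, 21.28% higher and 25.30% lower, and no list was tested against these shares. Of the 16 further genes of Kupffer identity, 4 rose and 5 fell, with a median log2 difference of -0.21 beside -0.11 over all genes. Slco2b1, an organic anion carrier, stood at 194 to 293 CPM in HCB-labelled against 51.4 to 80.0 CPM in unexposed libraries (log2 1.96 ± 0.21, edgeR adjusted p = 3.2e-05). Nr1h3, the nuclear receptor LXR-alpha that Kupffer cells of mice require, stood at 114 to 150 against 50.1 to 57.4 CPM (1.30, edgeR adjusted p = 0.000124). Both genes are also expressed by hepatocytes. Id1, an inhibitor of helix-loop-helix factors, fell by 1.73 and Zeb2, a repressor that maintains tissue macrophage identity in mice, by 0.95 (log2), with edgeR adjusted p of 0.000802 and 0.00101. Spi1, which encodes PU.1, stood at 5.61 to 8.03 against 7.14 to 9.67 CPM and was not called (-0.26, edgeR adjusted p = 0.328), and neither was Irf8 (-0.16, edgeR adjusted p = 0.476). Of this list 5 genes were called without control replicate 1, as without either of the atorvastatin plus HCB libraries, and 5 without both libraries with most reads outside exons.

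Among 8 tested genes of CSF1 and other niche signals, 1 rose and 4 fell, with a median of -0.61. Il34, the second ligand of CSF1R, stood at 3.61 to 5.38 CPM in HCB-labelled against 0.663 to 1.95 CPM in unexposed libraries (1.96, edgeR adjusted p = 0.0002), whereas Csf1 itself was not called (-0.42, edgeR adjusted p = 0.118). Csf2rb, the shared chain of the GM-CSF receptor, fell by 1.36, the neutrophil growth factor receptor Csf3r by 2.12 and Tgfb1 by 0.93 on the log2 scale, with edgeR adjusted p of 0.000354, 0.00349 and 0.00355. Tgfb1 was called in HCB versus control. In atorvastatin plus HCB versus atorvastatin it was not, although it passed with total reads (-1.19, edgeR adjusted p = 0.0162).

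Of 11 complement and Fc receptor genes, 2 rose and 1 fell, with a median of 0.03. The C1q genes C1qa, C1qb and C1qc, made in liver mainly by macrophages, gave log2 differences of 0.42, 0.38 and 0.53 and none was called. The inhibitory Fc receptor Fcgr2b, which sinusoidal endothelium also carries, stood at 70.7 to 95.4 CPM in HCB-labelled against 28.5 to 59.6 CPM in unexposed libraries (0.87, edgeR adjusted p = 0.0105). Fcgr2b was not called with total reads (0.39, adjusted p = 0.126) or without both libraries with most reads outside exons (0.56, adjusted p = 0.0909). Fcgr3a (0.91, edgeR adjusted p = 0.0345) and the integrin Itgax (-1.18, edgeR adjusted p = 0.0205) also passed, with adjusted p up to 0.115 and 0.0723 when 1 library was left out. Fcgr3a was lost without control replicate 1 or 2, HCB replicate 1 or 2, atorvastatin replicate 1 or atorvastatin plus HCB replicate 2. Itgax was lost without control replicate 1, HCB replicate 1 or 2, atorvastatin replicate 1 or atorvastatin plus HCB replicate 1. Those calls were of the average. In the single comparisons, Fcgr2b was called in atorvastatin plus HCB versus atorvastatin alone, Itgax in HCB versus control alone and Fcgr3a in neither. The list's count was 1 without control replicate 1, HCB replicate 1 or 2 or atorvastatin replicate 1, and 6 without atorvastatin replicate 2, while it was 0 without both libraries with most reads outside exons and 5 with no filter.

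Of 14 tested genes of scavenging and of the uptake of dying cells, 3 rose and 6 fell, with a median of -0.06. The receptor tyrosine kinases of dying-cell uptake fell: Mertk by 1.12 (14.9 to 21.9 CPM in HCB-labelled against 39.8 to 44.3 CPM in unexposed libraries), Tyro3 by 1.11 and Axl by 0.66 on the log2 scale. Their edgeR adjusted p were 0.000393, 0.000698 and 0.0161. Their bridging ligands Pros1, which hepatocytes also make as a coagulation cofactor, and Gas6 rose by 1.63 and 0.80, with edgeR adjusted p of 0.000231 and 0.00655. Mfge8, a bridge to integrins, was at 0.0225 to 0.107 CPM in HCB-labelled against 1.09 to 2.01 CPM in unexposed libraries (-4.31, edgeR adjusted p = 0.000139). Its HCB-labelled levels lay below the lowest of Timd4 (0.251 CPM, 10 reads), so the size of this difference rests on few reads. The scavenger receptor Msr1, of the same class as Marco, was not called (0.25, edgeR adjusted p = 0.351).

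Iron and red cell recycling split likewise, 3 up and 3 down of 13, with a median of -0.18. Hmox1, the haem oxygenase, stood at 22.6 to 33.8 CPM in HCB-labelled against 84.3 to 120 CPM in unexposed libraries (-1.88, edgeR adjusted p = 2.31e-05), and Vcam1, an adhesion molecule of erythroblastic-island macrophages and endothelium, fell by 1.98 (edgeR adjusted p = 2.74e-05). Blvrb, a biliverdin reductase, rose by 1.33 and the hepatocyte plasma protein Hp by 1.71, with edgeR adjusted p of 6.36e-05 and 0.00246. The iron exporter Slc40a1 was not called (-0.18, edgeR adjusted p = 0.490), and 10 genes of the list were called with total reads.

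Of 16 lysosomal genes 10 rose and 1 fell, with a median of 0.75. Lamp1 rose by 1.20, Ctsb by 0.99, Hexa by 0.77 and Npc1 by 0.75 on the log2 scale, with edgeR adjusted p of 0.000539, 0.00180, 0.00439 and 0.00392. In the single comparisons, Lamp1 and Npc1 were called in both. Neither call of Npc1 held with total reads (0.36 and 0.12, edgeR adjusted p = 0.304 and 0.721), and both depended on which library was left out. Without 1 library Npc1 ran from 0.56 to 1.02 in HCB versus control. It ran from 0.72 to 0.79 in atorvastatin plus HCB versus atorvastatin. Ctsb and Hexa were called in atorvastatin plus HCB versus atorvastatin and not in HCB versus control. There Ctsb passed with DESeq2 (0.74, DESeq2 adjusted p = 0.0134). These genes are expressed by hepatocytes as well as macrophages. The count was 5 without both libraries with most reads outside exons, and with scaling to total assigned reads it was 7. With total reads Npc1 (0.24, adjusted p = 0.268) and Hexa (0.27, adjusted p = 0.220) were not called, and without that pair of libraries Hexa was not (0.59, adjusted p = 0.0620).

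Of 17 tested inflammatory products, 1 rose and 1 fell, with a median of -0.38. Il10, the anti-inflammatory cytokine, was at 0.0534 to 0.190 CPM in HCB-labelled against 0.812 to 2.87 CPM in unexposed libraries (-3.58, edgeR adjusted p = 0.000537). The size of the Il10 difference likewise rests on few reads, its HCB-labelled levels being below the lowest of Timd4 (0.251 CPM, 10 reads). Ccl4, a chemokine, rose by 1.14 on average (edgeR adjusted p = 0.0331) and was called in neither single comparison. Ccl4 did not pass when either control library, HCB replicate 1, atorvastatin replicate 1 or atorvastatin plus HCB replicate 2 was left out, with adjusted p up to 0.109, and the list's count was then 1, other than without control replicate 2. With total reads it was 5. Tnf (-1.03), Il1b (-0.64) and Nlrp3 (-0.38) were not called, at edgeR adjusted p of 0.152, 0.135 and 0.167.

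Of 12 tested genes of monocytes and recruited macrophages, 2 rose and 4 fell, with a median of -0.43. Cd14, the endotoxin co-receptor, rose by 1.60 and Spp1, osteopontin, by 1.76, while Lpl fell by 4.42 and the tetraspanin Cd9 by 1.99 on the log2 scale, with edgeR adjusted p of 0.000245, 0.00387, 4.28e-05 and 0.00109. Which cells of the whole liver carried these differences was not tested. Spp1 was called in HCB versus control. It was not called in atorvastatin plus HCB versus atorvastatin, at log2 differences of 0.42 to 1.00 over the 9 other settings. The monocyte receptor Ccr2 stood at 0.801 to 1.71 CPM in HCB-labelled against 0.997 to 2.23 CPM in unexposed libraries and was not called (-0.39, edgeR adjusted p = 0.449). Of 14 genes shared by leukocytes, none rose and 6 fell, with a median of -0.37. Ncf1 of the phagocyte oxidase fell by 1.25, and the cytoskeletal Lcp1 and Arhgdib by 0.87 and 0.89, with edgeR adjusted p of 0.000247, 0.00201 and 0.00376. Lcp1 and Arhgdib were called in HCB versus control. In atorvastatin plus HCB versus atorvastatin they were not, although they passed with total reads (-1.19 and -1.33, edgeR adjusted p of 0.00607 and 0.00659). Ptprc (CD45) stood at 18.2 to 30.9 against 26.6 to 37.5 CPM and was not called (-0.39, edgeR adjusted p = 0.111).

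**Figure D4:**
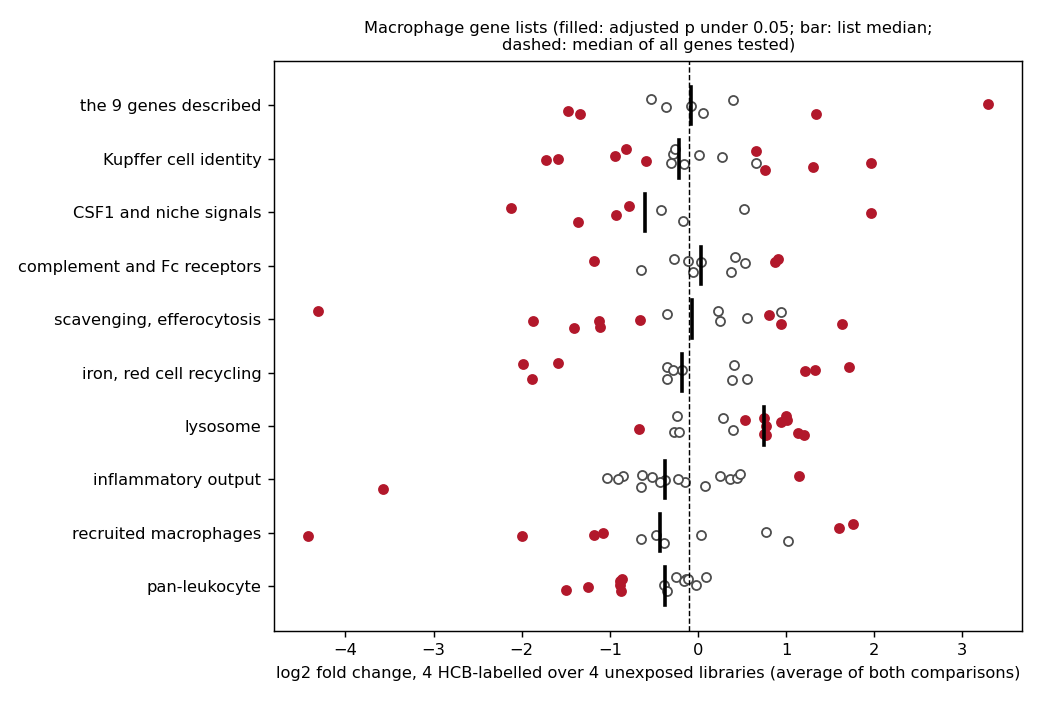
Log2 fold change of each tested gene in 10 macrophage gene lists, 4 HCB-labelled over 4 unexposed libraries, averaged over both comparisons, with filled points past an adjusted p of 0.05, a bar at each list's median and a dashed line at the median of all genes tested, -0.11. Rises and falls occur in most lists, lysosomal genes have a median of 0.75, and among pan-leukocyte genes 6 of 14 are called, all lower. Of all genes tested 46.6% are called, 21.28% higher and 25.30% lower.

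Markers of neutrophils, erythroid cells and dividing cells moved with the same split. In the average of both HCB comparisons, 46.6% of all genes were called, 21.28% higher and 25.30% lower. All 6 neutrophil markers fell, their summed level being 0.401 to 3.17 CPM in HCB-labelled against 129 to 218 CPM in unexposed libraries, and the defining Elane had no read in both HCB libraries. All 6 erythroid markers fell, with sums of 6.92 to 34.3 against 58.1 to 252 CPM, Gata1 having no read in both atorvastatin plus HCB libraries, and all 4 markers of dividing cells fell, with sums of 13.2 to 39.5 against 199 to 480 CPM. Of 4 megakaryocyte markers 3 fell. The sums of all 4 overlapped, at 16.02 to 20.6 CPM in HCB-labelled against 14.9 to 23.04 CPM in unexposed libraries. The parts of these cells in the differences of Csf3r, Ncf1, Hmox1 and the other genes they share with macrophages were not tested.

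Sinusoidal endothelium, which shares Mrc1 and Fcgr2b with Kupffer cells, did not move as 1 group. Stab2 fell by 1.26, Clec4g rose by 2.47, Kdr rose by 0.49 and Lyve1 (-0.16) was not called. Pecam1, Cdh5 and Tek of the same list are not reported by gene. The summed level of all 7 markers was 616 to 741 CPM in HCB-labelled against 707 to 913 CPM in unexposed libraries. Of 7 stellate cell markers 1 rose and 3 fell, beside 21.28% of all genes called higher and 25.30% lower in the average comparison. Their sums were 205 to 311 CPM in HCB-labelled against 476 to 583 CPM in unexposed libraries. Of 6 hepatocyte markers 4 rose and 1 fell, and their sums overlapped. T and NK cell, B cell and dendritic cell markers stayed low, with sums up to 4.43, 4.24 and 14.1 CPM in HCB-labelled and up to 5.28, 4.05 and 17.9 CPM in unexposed libraries. The summed level of the 9 Kupffer and macrophage genes overlapped, 426 to 610 CPM in HCB-labelled against 336 to 549 CPM in unexposed libraries, with Vsig4 and Clec4f taking a higher and Marco a lower part of it.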

How the data were processed

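RNA sequencing of 8 rat livers gave whole-number read counts per gene, as deposited. Per the submitters' processing notes, the authors trimmed reads with fastp 0.23.4 and aligned them with STAR 2.7.10b. Per the file headers, counts were taken over exons with featureCounts 2.0.6 (Ensembl 111, mRatBN7.2), with no strand or multimapping option, so reads on exons of more than 1 gene, on either strand, were left unassigned. Reads of all assignment classes sum to 508 M, 2.04 times the 249 M stated, which fits counting each mate by itself. The stated statin dose and the water recipe in the labels do not match, so the dose received is uncertain.

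Counts were tested with edgeR 4.0.16 in R 4.3.3: TMM, filterByExpr, 1 robust quasi-likelihood model of 4 groups with 4 residual degrees of freedom, and Benjamini-Hochberg adjustment over 16591 genes at 0.05. The common biological coefficient of variation was 0.295. RPKM used the deposited exon lengths, and log values a prior count of 2. The steps were tested on simulated counts in which few genes changed, which does not probe the choice of scaling. Group means carry counting error as well as the spread between 2 animals, and the labels give no batch or date. Members and lists were chosen with earlier results of these data known. From each list, up to 4 called genes with the smallest p in the average comparison were named by rule, of which 1 is not reported here. Others (Spi1, Irf8, Csf1, the C1q genes, Axl, Gas6, Msr1, Slc40a1, Tnf, Il1b, Nlrp3, Ccr2, Ptprc and the endothelial Stab2, Clec4g, Kdr and Lyve1) were added after their values were seen.

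Other settings tried were the Wald test of DESeq2 1.42.0, edgeR with DESeq2's size factors, total assigned reads in place of TMM, no filter, a filter of 1 CPM in 2 libraries, no robust estimation, a replicate block, all counts halved, leaving out the pair of libraries (control replicate 1 and atorvastatin replicate 1) with most reads outside exons, and each library left out in turn. Promoters are from RefSeq (GRCr8) and are not in the coordinates of the count table. Plots used Python 3.11.15 and matplotlib 3.10.9.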

Additional observations from a re-analysis of the deposited data

How the results depend on the processing

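Vsig4 kept its calls under every alternative, as did the average differences of Clec4f and Marco. In HCB versus control the number of members called was 1 without both libraries with most reads outside exons, and 1 to 3 with 1 library left out. In atorvastatin plus HCB versus atorvastatin it was 4 with no filter, 1 without that pair of libraries, and 1 to 3 with 1 library left out. In HCB versus control the number was 4 with no filter, Cd163 being added. It was also 4 there with total assigned reads, Cd163 and Csf1r being added and Clec4f lost. On average it was 8 with total assigned reads. With those reads in place of TMM, Cd68 turned to -0.081, -0.038 and -0.060 in HCB versus control, atorvastatin plus HCB versus atorvastatin and their average, Adgre1 to -0.57 in the second, and Mrc1 to -0.36 and -0.44 in the second and the average. In the second comparison Adgre1 turned to -0.027 with the stricter filter, and without the pair of libraries Adgre1, Mrc1 and Cd68 turned to -0.23, -0.066 and -0.067, while Mrc1 turned to -0.14 on average. With 1 library left out, signs turned within these ranges: Mrc1 -0.21 to 0.052 and Cd68 -0.057 to 0.62 in HCB versus control; Cd163 -0.74 to 0.17, Csf1r -0.42 to 0.17, Adgre1 -0.23 to 0.32, Mrc1 -0.062 to 0.59 and Cd68 -0.062 to 1.40 in the second; Adgre1 -0.20 to 0.070 and Mrc1 -0.079 to 0.25 on average. No value with a turned sign passed the threshold other than Mrc1 with total reads, while Cd68 passed at 1.40 without atorvastatin replicate 2, and the causes were not tested. With total reads the average differences of Clec4f, Nr1h3, Blvrb, Lamp1 and Ctsb shrank to 0.86, 0.76, 0.80, 0.70 and 0.48, and those of Zeb2, Tgfb1, Lcp1 and Arhgdib grew to -1.46, -1.43, -1.37 and -1.40, all still called. Same-numbered deviations from the group mean had correlations of -0.05 to 0.27, the highest between control and atorvastatin. With 2 libraries a group these cannot settle whether replicate numbers pair the animals. With a replicate block the members called stayed at 3 and 2 in the single comparisons and were 3 on average, Timd4 being lost. With 2 animals a group and Timd4 at 10 to 109 reads, smaller differences were not detectable.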
